A study of Arabidopsis thaliana with 10 samples.

Results

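Leaves of 2 Arabidopsis transgenic lines were compared here: plants labelled 35S:NTL6-SRDX in pnet2_ab (the NTL6 line) and plants labelled 35S:NTL9-SRDX in pnet2_ab (the NTL9 line). The libraries were chosen by these labels, 2 per line, or 4 of the 10 libraries in the series, and all genes were compared. Both lines carry the pnet2_ab mutations, and the other libraries came from pnet2_ab without a transgene, from wild-type Col-0 and from another line labelled NTL12-SRDX, 2 libraries each. All plants were 4 weeks old, grown on soil and untreated. The labels do not say how many independent transformants stand behind a line, whether a library pooled plants, or whether replicates were separate plants, so p-values cover only how far these samples spread, and that spread may be technical.

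PNET2 proteins belong to the inner nuclear membrane. NTL proteins are NAC transcription factors held at a membrane until they are released to the nucleus. NTL6 is known for inducing pathogenesis-related genes, and NTL9 for roles in osmotic stress, leaf senescence and salicylic acid synthesis. SRDX is a short repression domain that turns the factor it is fused to into a dominant repressor, and the 35S promoter drives it in most cell types, so a line is a model of the repression of a factor's targets in the whole plant rather than of the loss of the factor. The comparison asks in which genes the 2 repressor lines differ when the mutant background is held the same.

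The 4 libraries held 24089370 and 25321239 counts in the NTL6 line and 23643754 and 25529429 counts in the NTL9 line. Log2 CPM (CPM, counts relative to the TMM-adjusted library size) correlated at 0.981 between the replicates of either line and at 0.973 to 0.976 between lines. The counts at the NTL6 and NTL9 loci gave no check of the labels. NTL6 had 18.1 and 19.7 CPM in the NTL6 line and 17.5 and 17.5 CPM in the NTL9 line (log2 fold change 0.11, adjusted p = 0.76). NTL9 had 26.6 and 21.8 CPM against 27.7 and 22.9 CPM (log2 fold change -0.06, adjusted p = 0.87). Neither gene had a higher mean in its own line than in pnet2_ab. In pnet2_ab NTL6 had 23.8 and 27.1 CPM, with a log2 difference of -0.43 for the NTL6 line and -0.54 for the NTL9 line. NTL9 had 26.5 and 25.5 CPM there, with -0.04 for the NTL9 line. Whether transgene reads are counted at these loci is not known, so transgene expression was not shown. The lines are therefore known by their labels alone. RBCS1A, a mesophyll gene for Rubisco, had 15518 and 15594 CPM in the NTL6 line and 14707 and 16194 in the NTL9 line. Its like level in both lines was not typical of photosynthesis genes. Of 20 Calvin cycle genes 1 had a fitted value above 0 and 15 were called lower in the NTL6 line. Of 42 light-harvesting and photosystem genes 0 had a fitted value above 0 and 25 were called lower.

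Of 33602 genes 20334 were tested. At an adjusted p under 0.05, 397 genes (1.95%) were higher in the NTL6 line than in the NTL9 line and 835 (4.11%) were lower, or 1232 (6.06%) in either direction. At least 2-fold differences were found for 108 higher genes (0.531%) and 74 lower genes (0.364%). The median log2 fold change over all tested genes was 0.012. These counts depended on single libraries: without the second NTL9 library they were 157 higher and 325 lower, without the first NTL6 library 187 and 365, without the second NTL6 library 212 and 441, and without the first NTL9 library 317 and 889. The lower genes of at least 2-fold numbered 36 without the second NTL9 library and 121 without the first, and the higher ones 71 without the second. In bulk leaf RNA, fewer cells of a type and less RNA per cell cannot be told apart.

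**Figure D1:**
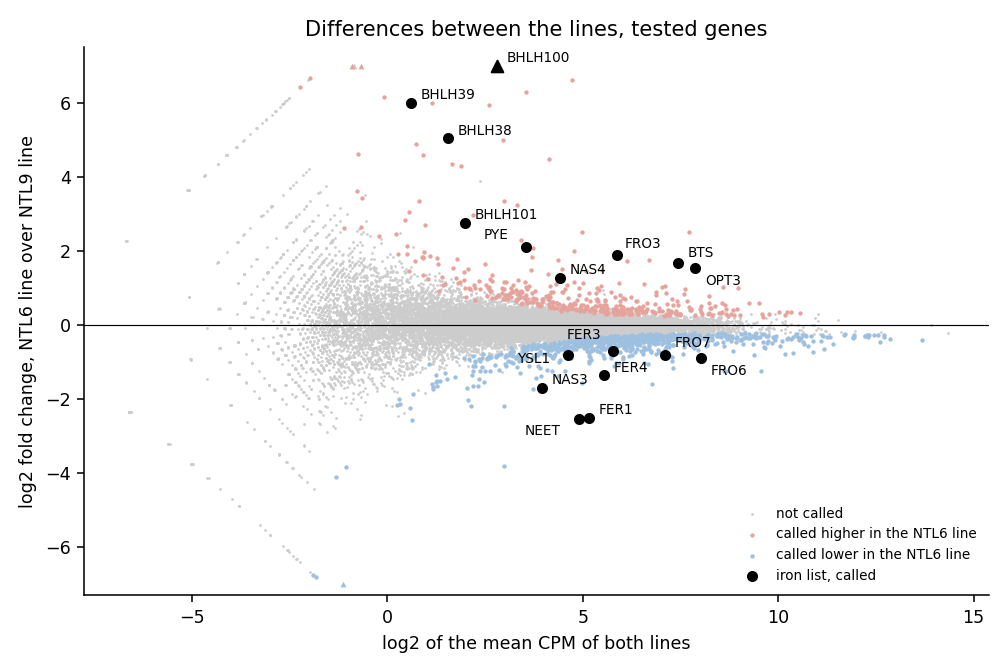
Log2 fold change of the NTL6 line over the NTL9 line (vertical axis) against the log2 of the mean CPM of both lines (horizontal axis), 1 point per tested gene. Called genes are coloured, the called members of the iron list are black and named, and triangles mark genes past the axis limit, BHLH100 among them, whose fitted value is no measure of size because the NTL9 libraries held 0 counts. The 4 BHLH genes lie at the top and FER1 and NEET near the bottom of the genes of like level.

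Genes of iron supply were among those with large differences, with the subgroup Ib bHLH regulators higher and the leaf ferritins lower in the NTL6 line. Plants short of iron are known to switch on subgroup Ib bHLH transcription factors, which act with other bHLH factors to turn on uptake and redistribution of the metal, while plants with ample iron make ferritin, the plastid protein that stores it. Of 25 iron genes in the list used here 22 were tested, 9 were higher in the NTL6 line, 8 were lower and 5 were not called. That is 40.9% and 36.4% of the members, beside 1.95% and 4.11% of all tested genes. Because both directions were present, the list median was only 0.32. These 17 calls were made again under 10 of 11 alternative settings, and without the second NTL9 library 16 were made, BHLH39 being lost. The list covers iron sensing, uptake, transport and storage. All 25 matched members are named below, a choice made after their values were seen. The list entries BTSL1, BTSL2, IMA1, IMA2 and IMA3 matched no symbol, so no value is given under these names. This does not mean that their loci were not counted.

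The windows just upstream of these genes are shown because 8 of the 17 called iron genes share 1 short word in them. The word is CACGTG, the G-box, a sequence to which bHLH and bZIP factors can bind, and it reads the same on both strands. It occurred in the 250 bases before the gene start of 4 of the 9 higher members (BHLH38, BHLH100, OPT3 and BTS) and 4 of the 8 lower members (FER3, FER4, FRO6 and FRO7), or 47.1% of the called members. Among 27443 windows of protein-coding genes 1780, or 6.49%, held it, and among tested genes 7.25% did. Of all genes called higher 9.54% had the word, and of all genes called lower 9.89%. Other words were counted in the same windows. TTGAC, the W-box core, was in 4 of the 9 higher and 4 of the 8 lower members, beside 44.9% of all windows. CACG, a NAC core that is part of the G-box letters, was in 8 and 6 of them, beside 45.6%. AGCCGCC was in 0 of either. A match is a description of the letters and not evidence of binding. Windows are from RefSeq, assembly TAIR10.1, given 5′ to 3′ on the strand of the gene, with the G-box in capitals. Those of BHLH100 (chr2:17199455-17199704, minus strand), BTS (chr3:6273716-6273965, plus strand) and OPT3 (chr4:9250344-9250593, minus strand) were chosen to show a regulator, a ubiquitin ligase and a transporter that were higher in the NTL6 line.
BHLH100: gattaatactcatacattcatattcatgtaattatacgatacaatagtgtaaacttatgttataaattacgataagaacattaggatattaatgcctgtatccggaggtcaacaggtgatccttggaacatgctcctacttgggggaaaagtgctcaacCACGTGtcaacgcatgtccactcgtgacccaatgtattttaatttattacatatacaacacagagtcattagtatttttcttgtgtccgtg
BTS: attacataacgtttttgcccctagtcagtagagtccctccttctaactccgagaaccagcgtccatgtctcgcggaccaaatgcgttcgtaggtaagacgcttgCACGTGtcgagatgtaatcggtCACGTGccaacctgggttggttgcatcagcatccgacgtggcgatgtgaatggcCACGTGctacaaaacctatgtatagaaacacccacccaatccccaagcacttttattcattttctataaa
OPT3: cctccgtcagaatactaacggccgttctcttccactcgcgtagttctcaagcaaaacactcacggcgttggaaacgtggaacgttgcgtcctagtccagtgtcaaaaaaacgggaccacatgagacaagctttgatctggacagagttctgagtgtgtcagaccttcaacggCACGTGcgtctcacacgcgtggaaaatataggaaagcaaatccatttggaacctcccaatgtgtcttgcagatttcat
The first base of the G-box stood 91 bases before the start of BHLH100 and 78 before that of OPT3. The BTS window held 3 copies, at 146, 124 and 70 bases before the start. The windows of FER1, NEET, NAS3, NAS4, FRO3, YSL1, PYE, BHLH39 and BHLH101 did not have these letters.

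The 4 subgroup Ib bHLH genes were all higher in the NTL6 line. BHLH100 (chromosome 2, 17198282 to 17199320 in the authors' table, build TAIR10) had 13.8 and 14.2 CPM in the NTL6 line and 0 and 0 CPM in the NTL9 line. No read was counted for it in either NTL9 library, so it was at least 108-fold higher, taking 3 counts per library as the most that a count of 0 allows at 95% confidence (adjusted p = 6.2e-05). BHLH38 had 4.96 and 6.37 CPM in the NTL6 line and 0.212 and 0.123 CPM in the NTL9 line (5.04 ± 0.76, log2 fold change ± SE, adjusted p = 0.0002). The NTL9 values rest on 5 and 3 counts. BHLH39 had 2.42 and 3.61 CPM in the NTL6 line, and 2 and 0 counts in the NTL9 line (adjusted p = 0.0028). BHLH101 had 6.7 and 7.06 CPM against 0.722 and 1.32 CPM (log2 difference 2.75 ± 0.51, adjusted p = 0.0017). In each of the 4 genes both NTL6 libraries lay above both NTL9 libraries, as they did in 24.1% of all tested genes. These genes are close paralogs, and how the authors' counting treated reads that fit several genes is not given in the sources used here.

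Genes that act beside the bHLH factors were higher as well. PYE, a bHLH factor known to bind the promoters of NAS4, FRO3 and ZIF1, had 18.4 and 19.8 CPM in the NTL6 line and 3.91 and 4.93 CPM in the NTL9 line (2.11 ± 0.22, adjusted p = 2.1e-06). BTS, a ubiquitin ligase that restrains the iron deficiency response, had 272 and 258 CPM against 83.8 and 83.1 CPM (log2 difference 1.67 ± 0.14, adjusted p = 6.2e-08). The libraries of a line lay close together in both genes. Both also passed the rule for the largest rises, which required lines that do not overlap.

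Of the transporters and reductases, some were higher and others lower in the NTL6 line. OPT3, which loads iron into the phloem, had 340 and 360 CPM in the NTL6 line and 118 and 121 CPM in the NTL9 line (1.55 ± 0.09, adjusted p = 1.8e-10). FRO3, a mitochondrial ferric reductase gene, had 93.2 and 90.9 CPM against 23.7 and 26.4 CPM (log2 difference 1.88 ± 0.13, adjusted p = 3.5e-09). NAS4, for synthesis of the metal chelator nicotianamine, had 29.5 and 31.3 CPM against 11.8 and 13.4 CPM (log2 difference 1.27 ± 0.18, adjusted p = 8.9e-05). The leaf reductase genes FRO6 and FRO7, neighbours on chromosome 5, went the other way. FRO6 had 182 and 183 CPM in the NTL6 line and 327 and 345 CPM in the NTL9 line (-0.88 ± 0.07), and FRO7, whose product works at the chloroplast, had 99.5 and 101 CPM against 165 and 184 CPM (log2 difference -0.80 ± 0.09). NAS3, a second nicotianamine synthase gene, had 7.61 and 6.83 CPM against 24.7 and 22.7 CPM (log2 difference -1.71 ± 0.14, adjusted p = 8.1e-08), and so ran opposite to NAS4. YSL1, a transporter of iron with nicotianamine, had 19.7 and 16 CPM against 32 and 31 CPM (log2 difference -0.82 ± 0.13). In these genes too the libraries of the 2 lines did not overlap, as in 9689 of 20334 tested genes.

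Ferritin genes were lower in the NTL6 line. FER1 (chromosome 5, 227953 to 230051, same table) had 11.7 and 9.89 CPM in the NTL6 line and 57.3 and 64.3 CPM in the NTL9 line (-2.50 ± 0.13, adjusted p = 8.5e-11). FER4 had 26.7 and 25.8 CPM against 68 and 67.3 CPM (log2 difference -1.36 ± 0.09), and FER3 had 42.2 and 41 CPM against 63 and 72.2 CPM (log2 difference -0.70 ± 0.10). Both NTL6 libraries were below both NTL9 libraries in each of these leaf ferritin genes. NEET, encoding an iron-sulfur protein, had 6.3 and 11.2 CPM against 40.2 and 62.3 CPM (log2 difference -2.55 ± 0.24, adjusted p = 5e-07). The seed ferritin gene FER2 was below 1 CPM in all 4 libraries and was not called, nor were NAS1 (27.7 and 26.1 CPM against 17.3 and 22.7 CPM, adjusted p = 0.098), YSL3, FRO2 and VTL1. IRT1, the root iron uptake transporter, NAS2 and VIT1 were too low to be tested.

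**Figure D2:**
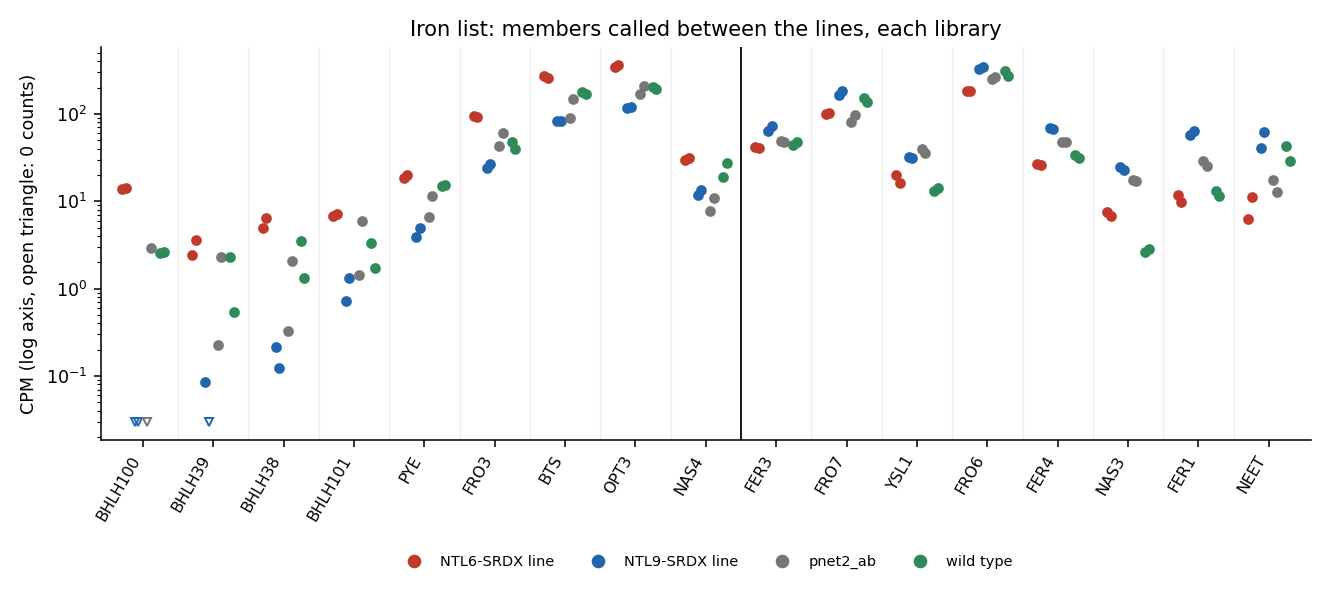
CPM of the 17 called iron list members (log axis) in each library of the NTL6 line, the NTL9 line, pnet2_ab and wild type, 1 point per library, with an open triangle for 0 counts and a vertical line between members higher and members lower in the NTL6 line. The NTL6 and NTL9 points do not overlap in any of these genes, nor do they in 9689 of 20334 tested genes. The pnet2_ab points spread widely in the BHLH genes, as for BHLH100 at 0 and 2.89 CPM.

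Several genes that were not among the matched members also differed strongly. ORG1, known as a gene responsive to the factor OBP3, had 364 and 349 CPM in the NTL6 line and 54.8 and 70.6 CPM in the NTL9 line (2.51 ± 0.23, adjusted p = 2.2e-07). ZIF1, a vacuolar transporter for nicotianamine, had 159 and 160 CPM against 45.5 and 48.9 CPM (log2 difference 1.76 ± 0.17, adjusted p = 5e-07). A further 7 loci were singled out after their values were seen, because they stood at the extremes of the comparison without a gene symbol. AT1G13609, annotated as a defensin-like gene, had 49.6 and 54.4 CPM in the NTL6 line and 0.637 and 0.411 CPM in the NTL9 line (6.62 ± 0.78). AT2G14247 had 20.3 and 26.2 CPM against 0.212 and 0.37 CPM (log2 difference 6.29 ± 0.75). AT2G30766 had 35.3 and 32.3 CPM against 0.679 and 2.3 CPM (log2 difference 4.49 ± 0.41). AT2G14247 and AT2G30766 carry no symbol in RefSeq or in the authors' table, nor do AT1G47395 (5.95 ± 0.60), AT1G47400 (5.01 ± 0.62) and AT5G05250 (2.51 ± 0.16), so whether any of them is one of the unmatched list entries was not tested. AT3G49160, a pyruvate kinase family gene, was at 1.15 and 0.92 CPM in the NTL6 line and 13.6 and 15.7 CPM in the NTL9 line (-3.82 ± 0.27, adjusted p = 3.7e-09). No library of a line crossed into the range of the other in these genes, as in 9689 of 20334 tested genes.

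Levels in pnet2_ab are set beside those of the lines, with the caution that both contrasts share the pnet2_ab libraries. The members were also chosen by the difference between the same NTL6 and NTL9 libraries. Calls on opposite sides of pnet2_ab or wild type were thus favoured in advance, and the counts are description only. Of the 9 members higher in the NTL6 line, 7 were called higher in the NTL6 line than in pnet2_ab, and 8 were called lower in the NTL9 line than in pnet2_ab. Of the 8 lower members, 6 were called lower in the NTL6 line than in pnet2_ab, and 7 were called higher in the NTL9 line. Over all 20334 tested genes, 1780 were called higher and 1902 lower in the NTL6 line than in pnet2_ab. In the NTL9 line 2351 were called higher and 2188 lower than in pnet2_ab. BTS had 272 and 258 CPM in the NTL6 libraries, 83.8 and 83.1 CPM in the NTL9 libraries, 90.3 and 148 CPM in the pnet2_ab libraries, and 180 and 167 CPM in those of wild type. FER1 had 11.7 and 9.89, 57.3 and 64.3, 28.7 and 25.5, and 13.1 and 11.4 CPM in the same order. The NTL6 libraries thus overlapped wild type for FER1 and lay above it for BTS, while the NTL9 libraries were above wild type for FER1 and below it for BTS. Against wild type, 8 of the 9 higher members were called lower in the NTL9 line and 5 were called higher in the NTL6 line. Over all tested genes, 2224 were called higher and 2563 lower than wild type in the NTL6 line, and 1278 and 1511 in the NTL9 line. Of the 8 lower members, 4 were called lower than wild type in the NTL6 line and 2 were called higher, NAS3 (adjusted p = 3.1e-06) and YSL1 (adjusted p = 0.046), while 6 were called higher than wild type in the NTL9 line.

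The 2 pnet2_ab libraries themselves differed in these genes. ORG1 had 88.2 and 214 CPM, AT1G13609 0.75 and 17.2 CPM, BHLH100 0 and 2.89 CPM and BTS 90.3 and 148 CPM in the first and second pnet2_ab library. The second library was the higher one in each. These libraries enter the difference between the lines only through the shared estimate of spread, and the source of their difference was not tested. In the NTL12 line BHLH100 had 0.19 and 0 CPM, BTS 83.4 and 73.1 CPM and FER1 35.8 and 34.1 CPM.

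Among the genes with the largest falls, several others encode proteins of plastids, and 1 the catalase of peroxisomes. CAT2 (AT4G35090), the main leaf catalase, a heme enzyme, had 237 and 233 CPM in the NTL6 line and 529 and 579 CPM in the NTL9 line (-1.24 ± 0.07, adjusted p = 1.8e-10). HEMA1, for the first committed step of heme and chlorophyll synthesis, had 251 and 238 CPM against 569 and 574 CPM (log2 difference -1.23 ± 0.07, adjusted p = 5.8e-10). ENH1, a rubredoxin-like chloroplast protein gene, had 54.6 and 56 CPM against 163 and 168 CPM (log2 difference -1.58 ± 0.09, adjusted p = 2.1e-10). Lines that do not overlap were a condition for naming these largest falls. SIGE, a sigma factor of the plastid RNA polymerase, had 8.01 and 8.82 CPM against 21.9 and 21.8 CPM (log2 difference -1.38 ± 0.17), and FBA5, an aldolase gene, had 450 and 452 CPM against 917 and 1198 CPM (log2 difference -1.23 ± 0.09). The terpene synthase gene TPS03 was at -1.25 ± 0.16, the beta-amylase gene BAM6 at -1.17 ± 0.19 and PP2-A13 at -1.37 ± 0.18. GPX7 and SRG3 (-1.23 and -1.25) were called too, but not without the first NTL6 library or without the second NTL9 library. CAT2 was at 200 and 189 CPM in pnet2_ab plants and at 456 and 441 CPM in wild-type plants, so here the NTL9 line was the one nearer wild type in level.

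**Figure D3:**
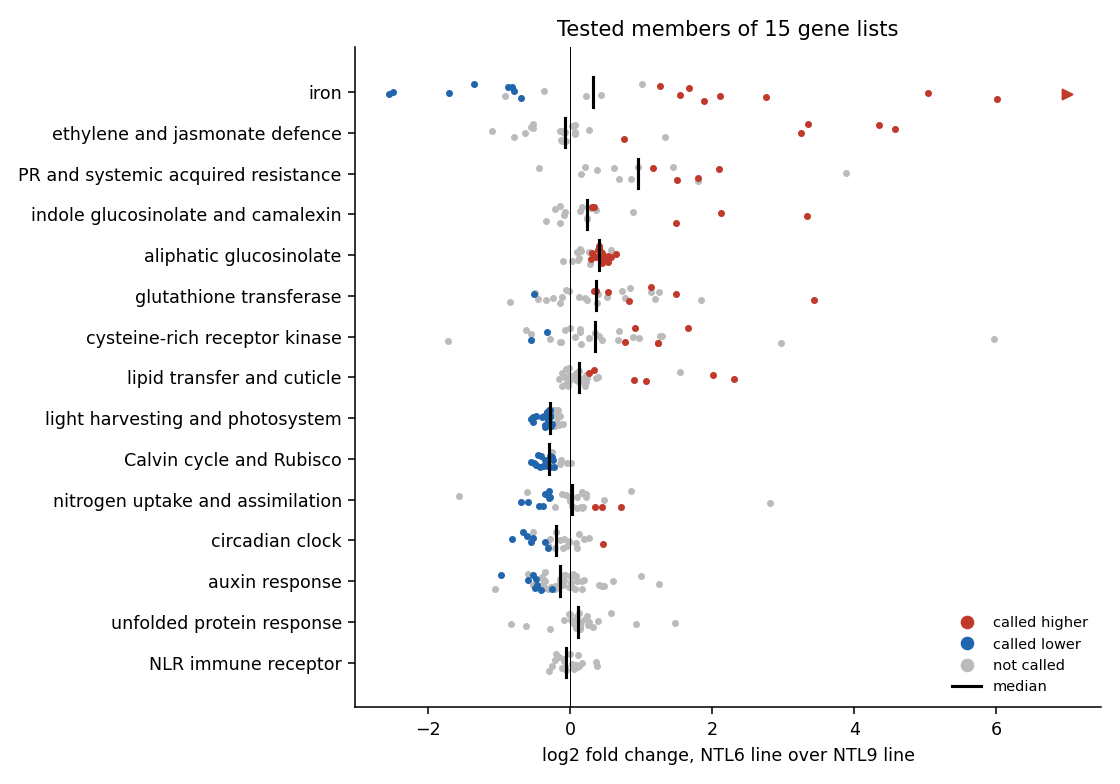
Log2 fold change, NTL6 line over NTL9 line, of every tested member of 15 gene lists, 1 point per gene, with called genes coloured and the list median as a bar; the arrowhead marks BHLH100 beyond the axis. Iron genes spread to both sides, aliphatic glucosinolate genes lie to the right around a median of 0.40, and photosynthesis genes to the left around medians of -0.28 and -0.30.

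Plant defensins and a few other defence genes were higher in the NTL6 line. Among ethylene and jasmonate defence genes 5 of 24 tested genes (20.8%) were higher, beside 1.95% of all tested genes. None was lower, 19 members were not called, and the median was -0.07. PDF1.2a, the antifungal defensin used as a marker of both hormones together (chromosome 5, 17907069 to 17907598 in the authors' table), had 14.9 and 20.8 CPM in the NTL6 line and 1.7 and 2.06 CPM in the NTL9 line (3.25 ± 0.31, adjusted p = 5e-07). Its paralogs PDF1.2c (4.35 ± 0.62), PDF1.2b (3.35 ± 0.87) and PDF1.3 (4.58 ± 0.83) were called as well, with 2.54 to 7.02 CPM in the NTL6 line and 0.0425 to 0.576 CPM in the NTL9 line. Reads of these similar genes may have been shared. PR4, a chitin-binding protein gene, had 68.4 and 72.7 CPM against 42.8 and 41 CPM (log2 difference 0.75 ± 0.12, adjusted p = 0.00027). PDF1.2a was at 0.652 and 1.22 CPM in pnet2_ab plants and at 0.9 and 0.58 CPM in wild-type plants, so the NTL6 line stood above all other genotypes in the study.

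The promoter of PDF1.2a is shown because it holds the GCC-box, AGCCGCC, to which ethylene response factors bind. Searched on both strands, this word occurred in 161 of 27443 windows (0.587%) and in those of PDF1.2a and PDF1.2b, but not in the windows of PDF1.2c and PDF1.3. In PDF1.2a (chr5:17907639-17907888, minus strand, same source, GCC-box in capitals) it began 223 bases before the gene start.
PDF1.2a: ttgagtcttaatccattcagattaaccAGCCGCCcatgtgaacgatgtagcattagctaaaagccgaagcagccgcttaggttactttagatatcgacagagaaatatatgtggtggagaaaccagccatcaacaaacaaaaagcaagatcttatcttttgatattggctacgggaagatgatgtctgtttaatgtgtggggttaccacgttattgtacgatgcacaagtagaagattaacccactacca
Of all genes called higher 0.773% had it in the window.

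Some pathogenesis-related genes of the salicylic acid type were higher in the NTL6 line too. In the list of PR and systemic acquired resistance genes 4 of 15 (26.7%) were higher and none lower. The median was 0.95, and 14 of the 15 fitted values were above 0. In the salicylic acid list 13% were higher, beside 1.95% of all tested genes. PR5, a thaumatin-like protein gene, had 35.5 and 30.4 CPM in the NTL6 line and 12.8 and 10.3 CPM in the NTL9 line (1.51 ± 0.26, adjusted p = 0.0007). PR2, a glucanase gene, had 21.3 and 21.5 CPM against 7.09 and 3 CPM (log2 difference 2.09 ± 0.47, adjusted p = 0.0083), which was no longer called without the second NTL9 library, with the DESeq2 Wald test or with limma. PR1 had 10.3 and 9.09 CPM against 1.19 and 0.123 CPM and did not pass (3.89 ± 1.25, adjusted p = 0.073). The NTL9 libraries were unlike each other in PR1 and PR2. ICS1, EDS1 and PAD4, for salicylic acid synthesis and its regulation, were at -0.09, 0.18 and 0.03 (adjusted p = 0.86, 0.66 and 0.96). In the salicylic acid list 3 of 23 genes were called, DMR6 (1.37), WRKY54 (1.16) and ACD6 (0.78), and none of these without the second NTL9 library. WRKY54 and ACD6 were also lost without the first NTL6 library, and ACD6 without the second and under the replicate block. AED1 and AGP5 were the other calls of the PR list, AED1 lost without the second NTL9 library and AGP5 lost on leaving out any one of the 4 libraries. Outside the list PCC1, a gene named for its control by pathogens and the clock, had 88.4 and 126 CPM against 45.5 and 19.6 CPM (log2 difference 1.72 ± 0.31, adjusted p = 0.0014, lost with the DESeq2 Wald test).

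Camalexin and glutathione transferase genes included further large differences. CYP71A13, of camalexin synthesis, had 13 and 15.8 CPM in the NTL6 line and 0.849 and 1.97 CPM in the NTL9 line (3.34 ± 0.39, adjusted p = 7.3e-06). RefSeq places the end of AT2G30766, described above, within CYP71A13 on the opposite strand, with 572 bases in common (chromosome 2, 13109909 to 13110480), and the strand setting of the counting is not stated, so reads of the pair cannot be told apart. CYP71B15, the last enzyme of the pathway, had 2.54 and 2.07 CPM against 0.764 and 0.288 CPM (4.37-fold, adjusted p = 0.0068), which was not called without the first NTL6 library or without the second NTL9 library. GSTF6, also linked to camalexin, had 69.2 and 64.5 CPM against 26.4 and 21.3 CPM (log2 difference 1.49 ± 0.10, adjusted p = 3.7e-09). In all, 5 of 19 genes of indole glucosinolates and camalexin were higher and none lower, with 2 higher without the second NTL9 library and 3 without the first NTL6 library. Of 30 glutathione transferase genes 7 (23.3%) were higher and 1 (3.33%) lower, GSTF7 (1.14) and GSTF2 (0.83) among the higher ones. The higher share was 26.3% in the indole glucosinolate and camalexin list. Over all tested genes 1.95% were higher and 4.11% lower.

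Lipid transfer protein genes, whose products carry lipids to the cell surface, were higher in the NTL6 line as well. LTP3 had 43.7 and 44.1 CPM in the NTL6 line and 11 and 10.7 CPM in the NTL9 line (2.01 ± 0.11, adjusted p = 1.1e-10). LTP4, its close paralog and neighbour, had 16.4 and 19.1 CPM against 3.27 and 3.95 CPM (4.91-fold, adjusted p = 3.7e-06), and LTP2 had 144 and 164 CPM against 82.6 and 82.4 CPM (log2 difference 0.90 ± 0.08). All 3 genes were far higher in pnet2_ab, LTP3 at 124 and 135 CPM, and lower in wild type, LTP3 at 0.75 and 1.03 CPM. Both lines thus lay between mutant and wild type, with the NTL6 line above the NTL9 line. In the lipid transfer and cuticle list 6 of 32 (18.8%) were higher, beside 1.95% of all tested genes, and none was lower. KCS2 (1.06 ± 0.16), an elongase gene for very long fatty acids, was among the higher ones.

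Receptor kinases and senescence genes were mixed. Over all tested genes 1.95% were higher and 4.11% lower. The shares were 16.1% and 6.45% for cysteine-rich receptor kinases and 15.6% and 12.5% for senescence and chlorophyll breakdown. For pattern-triggered immunity 11.4% were higher. Of 31 cysteine-rich receptor kinase genes 5 were higher, among them CRK45 (1.66), CRK6 (1.24) and CRK13 (1.24), and 2 were lower, CRK21 (-0.33) among them. CRK13 was lost without the second NTL9 library, and CRK21 without it or without the first NTL6 library. Without the second NTL9 library 2 were higher and 0 lower, and without one or the other NTL6 library 3 were higher. Of 32 genes of senescence and chlorophyll breakdown 5 were higher and 4 lower, with 3 higher without the first NTL6 library or without the second NTL9 library. SAG13 had 7.26 and 8.94 CPM in the NTL6 line and 1.1 and 0.946 CPM in the NTL9 line (2.98 ± 0.61, adjusted p = 0.0036, lost with limma), whereas NYC1, a chlorophyll b reductase gene, had 110 and 100 CPM against 194 and 218 CPM (log2 difference -0.97 ± 0.08, adjusted p = 6.2e-08). ASN1, an asparagine synthetase gene induced in the dark, was at 1.15 and 1.27 CPM against 4.67 and 2.38 CPM (log2 difference -1.54 ± 0.32), which was no longer called without the first NTL9 library or with limma. WRKY53, a regulator of senescence, had 5.95 and 5.75 CPM against 4.2 and 3.12 CPM (log2 difference 0.68 ± 0.20, adjusted p = 0.046), and that call was lost under the replicate block and without the first NTL6, the second NTL6 or the second NTL9 library. Pattern-triggered immunity had 4 of 35 genes higher and none lower, RLP23 (1.79, lost without the second NTL9 library) foremost, with 1 called without the first NTL6 library and 2 without the second NTL9 library.

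**Figure D4:**
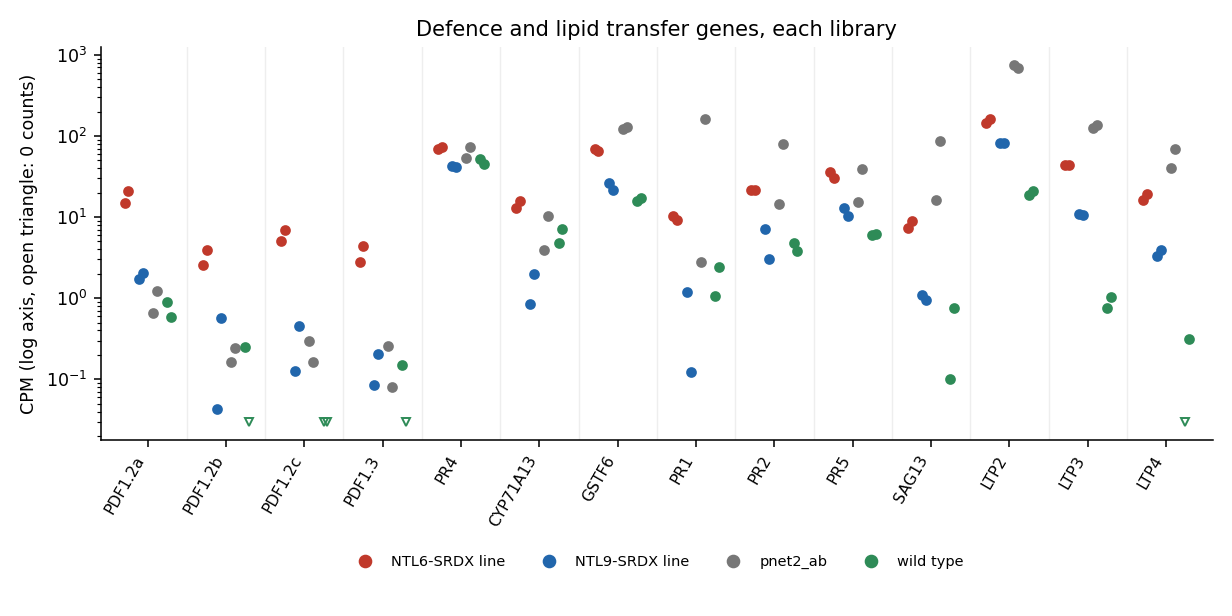
CPM (log axis) of 14 defence and lipid transfer genes in each library of the NTL6 line, the NTL9 line, pnet2_ab and wild type, 1 point per library, with open triangles for 0 counts. PDF1.2a stands highest in the NTL6 line, LTP2 to LTP4 and GSTF6 highest in pnet2_ab, and PR1, PR2 and SAG13 differ strongly between the 2 pnet2_ab libraries, PR1 at 2.81 and 163 CPM.

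Photosynthesis genes were slightly lower in the NTL6 line. Of 42 genes for light harvesting and the photosystems 25 (59.5%) were lower, beside 4.11% of all tested genes. None was higher, the median was -0.28, and every fitted value was below 0. PSAN, a photosystem I subunit gene, had 1350 and 1470 CPM in the NTL6 line and 2027 and 2138 CPM in the NTL9 line (-0.56 ± 0.06, adjusted p = 3.3e-06). LHCB2.3, a light-harvesting protein gene, had 744 and 777 CPM against 1022 and 1101 CPM (log2 difference -0.48 ± 0.07). Of 20 Calvin cycle genes 15 (75%) were lower and none higher, with a median of -0.30. RBCS2B, a Rubisco small subunit gene, had 1325 and 1347 CPM against 1814 and 1981 CPM (log2 difference -0.51 ± 0.06, adjusted p = 1.3e-05), and RCA, the activase of Rubisco, had 5187 and 5396 CPM against 6779 and 7771 CPM (log2 difference -0.46 ± 0.07). RBCS1A did not differ past the threshold (0.01, adjusted p = 0.96). Light-harvesting and Rubisco genes come in similar copies, so the split of reads among them is uncertain.

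The NTL9 replicates differed from each other in these lists. Relative to each gene's mean over the 4 libraries, the median light-harvesting gene was at -0.18 and -0.11 on the log2 scale in the NTL6 libraries and at 0.04 and 0.24 in the NTL9 libraries. The median Calvin cycle gene was at -0.17 and -0.14 in the NTL6 libraries and at 0.09 and 0.21 in the NTL9 libraries. Without the second NTL9 library 15 light-harvesting and photosystem genes were called lower, without the first NTL6 library 7, and without the first NTL9 library 38. For the Calvin cycle the counts were 8 without the second NTL9 library and 8 without the first NTL6 library, and 9 without the second NTL6 library. With limma on FPKM values 6 light-harvesting genes and 8 Calvin cycle genes were called. Of all 1232 called genes 1231 or more kept the sign of their difference in each fit that left out a library. Those fits reuse the remaining libraries that gave the calls, so a kept sign is no independent check.

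Aliphatic glucosinolate genes, which make sulfur-rich defence compounds from methionine, were modestly higher in the NTL6 line. Of 29 tested 17 (58.6%) were higher and none lower, with a median of 0.40, beside 1.95% higher over all tested genes. BASS5, a plastid transporter of the pathway, had 106 and 98.6 CPM in the NTL6 line and 73.3 and 57.5 CPM in the NTL9 line (0.64 ± 0.10, adjusted p = 0.00027). IPMI2, for side-chain elongation, had 140 and 135 CPM against 103 and 82.8 CPM (log2 difference 0.57 ± 0.09). GSTU20 had 463 and 484 CPM against 353 and 302 CPM (log2 difference 0.53 ± 0.08). The second NTL9 library was the lowest of the 4 in each, and without it only 3 members were called, against 8 without the first NTL6 library. In pnet2_ab BASS5 had 65.3 and 66.2 CPM and IPMI2 66.4 and 67.7 CPM.

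**Figure D5:**
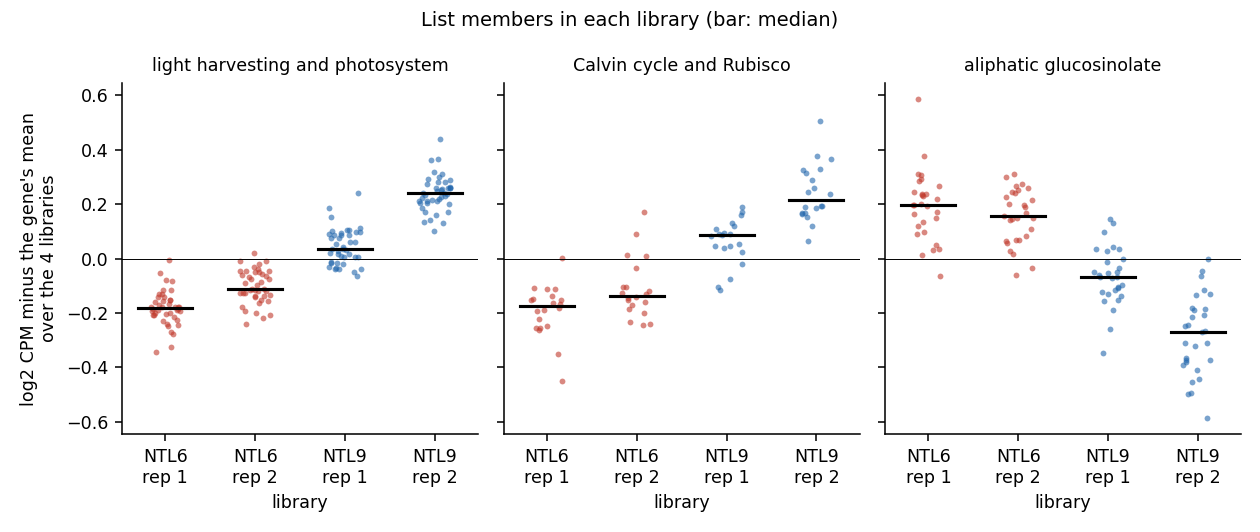
Log2 CPM of each tested list member minus that gene's mean over the 4 libraries (vertical axis), by library of the NTL6 and NTL9 lines, for 3 lists, with the median as a bar. The NTL6 libraries lie on one side and the NTL9 libraries on the other, and the second NTL9 library lies farther out than the first, at 0.24 against 0.04 for light harvesting and -0.27 against -0.07 for aliphatic glucosinolates.

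Lower members outnumbered higher ones in the nitrogen, sugar, clock and auxin lists, as they did over all tested genes, with 835 lower and 397 higher. In the list of nitrogen uptake and assimilation 8 of 31 genes (25.8%) were lower and 3 (9.68%) higher, with a median of 0.03 and 16 fitted values above 0. The 3 higher calls numbered 0 without the first NTL6 library, 2 without the second, 1 without the first NTL9 library and 0 without the second. NIA2, the main nitrate reductase gene, had 353 and 345 CPM in the NTL6 line and 565 and 565 CPM in the NTL9 line (-0.69 ± 0.08, adjusted p = 6.4e-06), and NIR1, nitrite reductase, had 186 and 182 CPM against 272 and 287 CPM (log2 difference -0.60 ± 0.07). Of 35 genes of sugar and energy starvation 9 were lower and 1 higher, TPS8 (-0.67), KMD1 (-0.68) and TPS11 (-0.56) among the lower ones. Of 25 clock genes 7 were lower, led by the coactivator genes LNK4 (-0.82, lost without the first NTL6 library or the second NTL9 library) and LNK2 (-0.67), and 1 was higher, while CCA1 was at -0.52 (adjusted p = 0.12). Auxin response genes were lower in 8 of 45 cases and higher in none, IAA16 (-0.47) and IAA7 (-0.48) among them. Without the second NTL9 library the lower members numbered 3 for nitrogen, 6 for sugar, 2 for the clock and 2 for auxin. Without the first NTL6 library they numbered 5, 7, 3 and 2, without the second NTL6 library 5, 5, 4 and 4, and without the first NTL9 library 7, 7, 5 and 5, in the same order of lists.

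Hormone and stress lists beyond these held scattered calls. Over all tested genes 1.95% were higher and 4.11% lower, and some of these lists were near that. The shares were 11.8% and 5.88% for jasmonate, 23.8% and 9.52% for cold, and 4% and 8% for abscisic acid. They were 8.57% and 14.3% for cell wall loosening and 5.56% and 5.56% for anthocyanin. The flowering list had 3.57% and 7.14%. Of 34 jasmonate genes 4 were higher and 2 lower, with 2 higher without one or the other NTL6 library. VSP1, a vegetative storage protein gene, had 21.5 and 19.5 CPM in the NTL6 line and 4.25 and 7.15 CPM in the NTL9 line (1.84 ± 0.22, adjusted p = 1.3e-05), and JAZ9 and JAZ6, repressors of the pathway, were at -0.84 and -0.38, both lost without the second library of either line, and JAZ6 also without the first NTL6 library. Of 21 cold-regulated genes 5 were higher, GOLS3 (0.80 ± 0.13), COR15B (0.54 ± 0.10) and RD29A (0.41 ± 0.07) among them, and 2 lower. Without the second NTL6 library 3 were higher and 1 lower, without the first NTL6 library 0 were lower, and without the second NTL9 library 1 was. The abscisic acid list had 1 of 25 higher, RD22 (0.60), and 2 lower, AFP3 (-1.73), lost without the second NTL9 library, and PYL4 (-0.46), lost when any library was left out. Of 35 cell wall loosening genes 3 were higher, EXPA16 (1.09) first, and 5 lower, XTH27 (-0.66) and XTH6 (-0.65) among them, with 3 lower without the first NTL6 library. Anthocyanin genes gave 2 calls of 18, MYBL2 (-0.71), a repressor of the pathway, and LDOX (0.90), whose call was lost on leaving out any one of the 4 libraries. Single or few calls were TSO2 (0.59) of 26 DNA damage genes, AOX1A (-0.56) and NDA1 (-0.63, lost under the replicate block) of 18 mitochondrial retrograde genes, and SVP (-0.35), TEM2 (-0.55) and AP1 of 28 flowering genes. Of these only TSO2 was called whichever library was left out.

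None of the 15 tested NTL family genes passed the test, beside 6.06% of all tested genes called in either direction. NAC103 came nearest with 6.62 and 5.18 CPM in the NTL6 line and 3.06 and 3.17 CPM in the NTL9 line (0.92 ± 0.28, adjusted p = 0.055), and it was called with no filter on low counts (adjusted p = 0.018) and in the fit of the 4 libraries alone (adjusted p = 0.045), with adjusted p of 0.051 to 0.37 in the other alternatives. Of the 3 PNET2 family genes AT5G67610 had 8.8 and 8.63 CPM against 12 and 15 CPM (log2 difference -0.63 ± 0.17, adjusted p = 0.026), which was no longer called without one or the other NTL6 library or the second NTL9 library. AT1G28760 and AT3G49840 were at -0.17 and 0.39 (adjusted p = 0.71 and 0.51). None was called among 30 genes of the unfolded protein response, 32 of autophagy, 33 of cell division, 21 NLR immune receptors and 17 heat shock genes. At a share of 6.06% over all tested genes, lists of these sizes would hold few calls, so the absence of calls says little. BT2 and FLC did not pass either, at 0.10 and -0.80 (adjusted p = 0.88 and 0.17).

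Of the markers of other cell types, vasculature markers leaned higher and epidermis and trichome markers lower in the NTL6 line. Few in any list were called, where 6.06% of all tested genes were called in either direction. Of 9 epidermis and trichome markers 1 had a fitted value above 0, with a median of -0.13. Of 9 guard cell markers 6 did, with a median of 0.06. None of 9 guard cell and 9 epidermis and trichome markers was called, and their summed levels were 3123 to 3232 CPM and 893 to 908 CPM in the NTL6 line, against 2547 to 3252 CPM and 877 to 935 CPM in the NTL9 line. Of 15 vasculature markers 14 had fitted values above 0, with a median of 0.29, beside 0.012 over all tested genes. SUC2 (0.29) and XCP2 (0.43), or 13.3%, were called higher, 0 were called without one or the other NTL6 library or without the second NTL9 library, and 4 without the first NTL9 library. Their sums were 1074 to 1084 CPM against 927 to 1005 CPM. OPT3 and YSL1 of the iron list are known from the vasculature, and the part of cell makeup in their difference was not tested. Root markers summed to 94 to 106 CPM against 101 to 171 CPM, nearly all of it from PYK10 (-0.83, adjusted p = 0.036, lost without one or the other NTL6 library or the second NTL9 library), SCR and SHR, while the defining genes CASP1 and RHD6 were at 0 in all 4 libraries. Flower and pollen markers summed to 5.71 to 6.62 CPM against 5.35 to 6.95 CPM. AP1 was at 0.595 and 0.422 CPM against 0 and 0 CPM (adjusted p = 0.036, lost on leaving out any one of the 4 libraries). Its lower NTL6 value was 3.31 times the same floor. That value rests on 11 counts, whose own counting error the ratio leaves out, so 3.31 is no firm minimum.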

How the data were processed

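Strand-specific mRNA libraries of leaves were sequenced, 10 in all. Per the submitters' processing notes HISAT2 2.0.4 and HTSeq 0.6.1p1 were used with build TAIR10, and their options, the strand setting included, are not given in the sources used here. The authors deposited raw counts per gene and FPKM values for the same 33602 genes. The series' design text speaks of triplicates, and 2 libraries per genotype were used here.

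Raw counts were fitted with edgeR 4.0.16 (R 4.3.3), with 1 mean per genotype over all 10 libraries, TMM scaling and filterByExpr, which left 20334 genes. The NTL6 line was compared with the NTL9 line by the quasi-likelihood F test with Benjamini-Hochberg adjustment over all tested genes, and adjusted p values in the text come from it. A called gene has an adjusted p under 0.05. CPM are counts scaled to the TMM-adjusted library size, and 3 counts corresponded to 0.0979 to 0.15 CPM per library, and floors cover counting error only. On counts simulated for 20002 genes, 25 of 67 changed by 1.5-fold, 48 of 67 changed by 2-fold and 65 of 66 changed by 4-fold were recovered, with 9 false calls. Alternatives were DESeq2 1.42.0 size factors and Wald test, other count filters, the 4 libraries alone, leaving out each library, a replicate block, and limma 3.58.1 on log2 of the deposited FPKM plus 0.5.

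Named genes are PNET2 and NTL family genes, the 15 largest rises and 15 largest falls with a symbol, at least 5 CPM and lines that do not overlap, up to 4 members of each list with the smallest adjusted p, and a set of defence, senescence and clock genes. Of these a part is printed. Other called genes of the iron list, PDF1.2b, the loci without a symbol, SAG and GST examples and markers were added after their values were seen. The comparison and the 37 lists (955 of 980 members matched) were chosen with earlier results of these data known. Names and the 250-base windows are from RefSeq TAIR10.1, which matched 32835 loci.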

Additional observations from a re-analysis of the deposited data

How the results depend on the processing

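The 397 higher and 835 lower genes became 636 and 1095 with no filter on low counts, and 230 and 512 with limma on FPKM, which called 69 genes at least 2-fold higher. Leaving out 1 library gave 157 to 317 higher and 325 to 889 lower genes, with 71 to 118 and 36 to 121 of at least 2-fold. The causes were not tested, beyond fewer samples in these fits. The other settings kept all 4 counts within 1.5 times. All alternatives reused the same libraries, so a kept sign among them is no independent check. Of 120 named genes called, 78 were called under every alternative and none reversed. Calls were lost for 36 without the second NTL9 library, 24 without the first NTL6 library, 22 with limma, 18 without the second NTL6 library and 9 with the DESeq2 Wald test.

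Replicate numbers were not shown to pair the samples: deviations of same-numbered libraries correlated at 0.0196. With the replicate block 359 genes were higher and 770 lower, 101 and 69 of them at least 2-fold, and 3 named genes (WRKY53, ACD6 and NDA1) were no longer called. With 2 libraries a line, differences of about 1.5-fold were mostly below what could be called.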
